A study of Mus musculus with 29 samples.

Results

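EGFP podocytes taken 4 days after an immunotoxin injection were compared with EGFP podocytes of day 0. The groups were chosen by sample title and hold 4 and 4 of the 29 one-colour arrays of the series, each from a different mouse. All mice were male C57BL/6J animals of the transgenic line Pod-hCD25T/G, aged 8 weeks. The labels give 1 protocol for all samples, a heminephrectomy followed by 25 ng of LMB2 per gram of body weight, and describe the day 0 samples as taken ahead of the injection. Whether the day 0 mice had lost a kidney is therefore not settled by the labels, and effects of surgery, toxin and time cannot be told apart in this comparison. LMB2 is an antibody fragment against human CD25 fused to a Pseudomonas exotoxin that stops translation elongation. The labels do not say what the colours stand for. By general knowledge of this mosaic line, human CD25 is made in the TdTomato podocytes and not in the EGFP podocytes beside them. The question for the EGFP cells is thus what happens to a podocyte whose neighbours, not itself, were hit. No label names the promoter that drives the transgenes. Each mouse of day 4 also gave a TdTomato sample, and 4 EGFP samples of day 7 followed.

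Podocytes are the epithelial cells that wrap the glomerular capillaries. Their interlocking foot processes, anchored to the basement membrane by integrins and held in shape by actin, are joined by the slit diaphragm, a filter built around nephrin. Mature podocytes hardly divide, so when some are lost the rest must cover more capillary, and stressed podocytes are known to lay down matrix, take on contractile proteins and lose slit proteins.

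Values are log2 signals relative to the array's 75th percentile. Differences carry the standard error of limma, and p-values are Benjamini-Hochberg adjusted limma values over 15628 genes, with 0.05 as the threshold. Values by array are listed in the order of slides 1 to 4, which for day 0 is mice MC122, MC731, MC742 and MC753 and for day 4 is MC151, MC692, MC822 and MC823. Every slide thus held 1 array of each group, but all day 0 arrays lay in 1 row of the slides and all day 4 arrays in the other, so row and day cannot be told apart. Between 54.9% and 59.7% of the spots were well above background on the day 0 arrays and between 48.4% and 54.1% on the day 4 arrays, without overlap, and the part of this in the results was not tested.

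Both groups carried the markers of podocytes. Nephrin, Nphs1, read 7.97, 7.24, 7.43 and 7.52 at day 0 and 7.73, 7.35, 7.45 and 7.38 at day 4, and the groups overlapped (change -0.06 ± 0.17, adjusted p = 1). Changes were similarly small for the surface sialomucin Podxl (0.02 ± 0.28), the transcription factor Wt1 (0.00 ± 0.21) and the actin-associated Synpo (0.22 ± 0.14, adjusted p = 0.82). None of 19 podocyte transcription factors and none of 23 glomerular basement membrane genes measured was called in either direction, and their medians were 0.00 and 0.02 beside 0.07 over all genes. Of other kidney cells, the summed signal of 17 endothelial markers ran from 170 to 237 times the 75th percentile at day 0 and from 158 to 223 at day 4. Cldn5 was by far the brightest of them (mean log2 signal 7.54 at day 0 and 7.42 at day 4), ahead of Kdr (2.75 and 3.13). The sum thus mainly follows Cldn5, and the median change of the list was -0.31. For 18 myeloid markers, 6 of them not above background on any of the 8 arrays, the sums were 37.8 to 65.8 and 32.8 to 51.2. Here Itgam (5.26 and 4.88) and Csf1r (3.31 and 3.05) were the brightest. The 19 proximal tubule markers were the list with the highest median change, 0.90, with sums of 4.98 to 8.15 at day 0 and 7.31 to 18.0 at day 4. In sorted pools fewer cells of a type and less RNA per cell cannot be told apart.

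At day 4 the EGFP podocytes showed a small and mostly upward change. Limma called 87 genes higher (0.557% of those tested) and 6 lower (0.0384%). In the 71 genes above background on a day 0 array the rises ran from 0.63 to 6.05 on the log2 scale with a median of 1.73. The other 16 were at background on all day 0 arrays, so that only a lower bound of their rise can be given; with 15 of them at that bound and 1 with no bound left out, the median was 1.63 and 31 of 86 genes were over 4-fold. Among these 87 genes were secreted and matrix proteins (Thbs4, Col5a3, Col22a1, Timp1, Adamts2, Adamts9, Bmp1), cell-surface receptors and channels (Epha8, P2rx7, P2rx5, Ednra) and actin-binding proteins (Tagln, Flna, Iqgap1). Crct1, Cdsn, Pkp1 and Padi4 were 4 of 25 measured genes of a cornified-envelope and desmosome list, whose median change was 0.02. In 86 of the 87 the 4 arrays of day 4 all lay above the 4 of day 0, which 617 genes (3.95%) did, against 167 genes (1.07%) that lay wholly below. A day 4 value above the day 0 value on each of the 4 slides, found in 86, follows from that lack of overlap and is no further support. For 59 of the 87 the probe was well above background on all 8 arrays, and for the 16 genes at background it was so on no day 0 array. The count rests on the spread shared over all 29 arrays: fitted on the 8 arrays alone, 26 genes were higher, and with the slide as a block 250 were, including all of the 87. Dropping MC731 of day 0 left 41, dropping MC822 of day 4 left 50 and dropping MC823 left 57; normexp background correction gave 53 and scaling to the array median 57.

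S100a6, a small calcium-binding protein that gathers at membranes of stressed and migrating cells, was among the clearest of them. Its day 0 arrays read 1.15, -0.16, 0.57 and 0.50 and its day 4 arrays 3.17, 2.45, 4.73 and 3.21. The lowest day 4 array was above the highest of day 0, the change was 2.87 ± 0.43 (7.33-fold, adjusted p = 0.00058), and within the slides it was 2.02, 2.62, 4.16 and 2.70. Timp1, the secreted inhibitor of matrix metalloproteinases, read -1.98, -2.81, -2.77 and -2.51 at day 0. At day 4 it read 0.01, -1.18, 0.59 and -0.24, again without overlap (2.31 ± 0.33, 4.96-fold, adjusted p = 0.00033). Psat1, the transaminase in the middle step of serine synthesis, read -1.64, -2.03, -1.69 and -1.29 at day 0 and 0.30, -0.24, 0.59 and -0.38 at day 4. Its change was 1.73 ± 0.24 (3.31-fold, adjusted p = 0.00033), and a dimmer probe of the same gene gave 0.37. For all 3 genes the array of MC822 was the highest of day 4. All 3 kept their calls under each alternative setting tried except the fit on the 8 arrays alone.

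**Figure D1:**
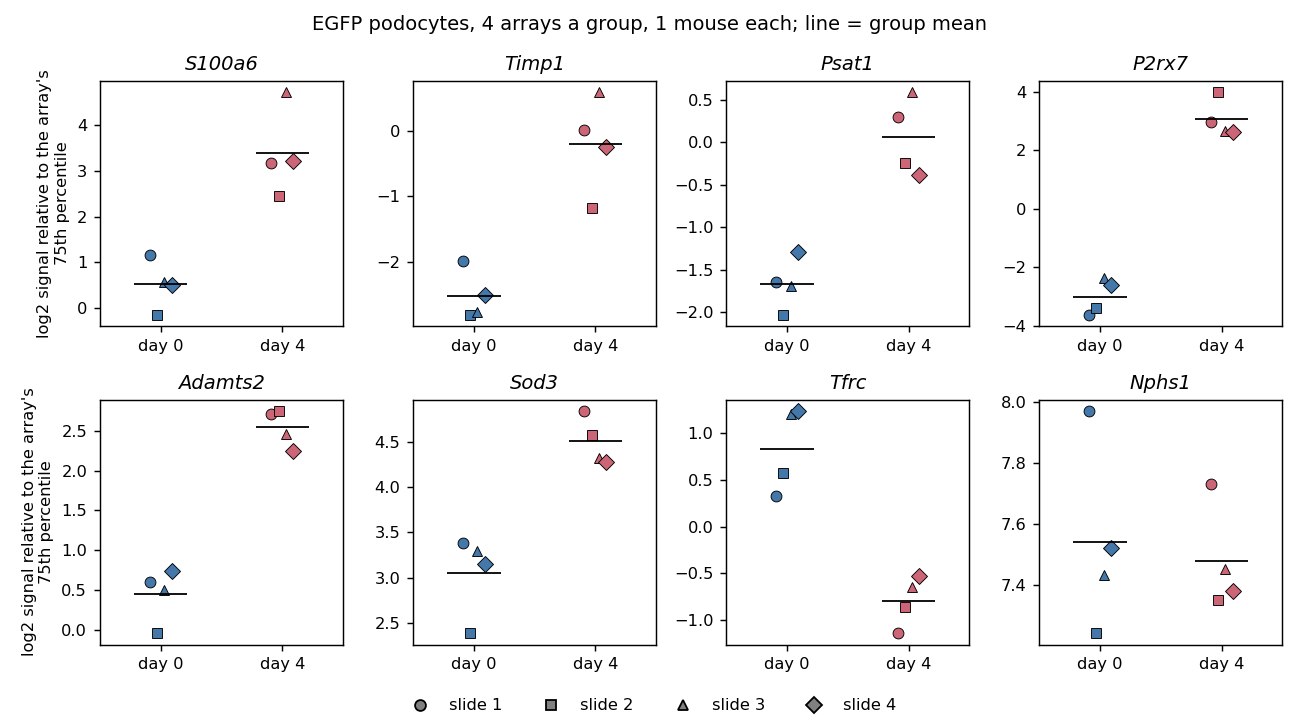
Signal of 8 genes on each EGFP array (log2 relative to the array's 75th percentile), with 4 mice at day 0 and 4 at day 4; symbols give the slide and lines the group means. S100a6, Timp1, Psat1, P2rx7, Adamts2 and Sod3 are higher on all 4 arrays of day 4, Tfrc is lower on all 4, and the groups overlap for Nphs1.

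Because S100a6, Timp1 and Psat1 changed in the same samples, the 250 bases ahead of their annotated starts were searched, on both strands, for the ATF4 element TGATGNAAN, the AP-1 element TGANTCA, the TEAD element GGAATG, the CArG box and the NF-kB element. The sequences are RefSeq's, from GRCm38.p6: chr3:90612644-90612893 (plus strand), chrX:20869916-20870165 (plus strand) and chr19:15925060-15925309 (minus strand, the upstream of 2 starts), shown 5′ to 3′ with a match in capitals.
S100a6: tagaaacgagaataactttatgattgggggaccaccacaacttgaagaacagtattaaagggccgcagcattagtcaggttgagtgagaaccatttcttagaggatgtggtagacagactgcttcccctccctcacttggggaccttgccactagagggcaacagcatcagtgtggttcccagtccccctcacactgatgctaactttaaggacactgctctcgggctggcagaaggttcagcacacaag
Timp1: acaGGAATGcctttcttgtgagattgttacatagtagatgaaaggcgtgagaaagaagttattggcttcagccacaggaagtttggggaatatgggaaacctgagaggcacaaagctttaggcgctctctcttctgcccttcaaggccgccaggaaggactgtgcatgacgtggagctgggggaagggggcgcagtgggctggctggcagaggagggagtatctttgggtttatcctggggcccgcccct
Psat1: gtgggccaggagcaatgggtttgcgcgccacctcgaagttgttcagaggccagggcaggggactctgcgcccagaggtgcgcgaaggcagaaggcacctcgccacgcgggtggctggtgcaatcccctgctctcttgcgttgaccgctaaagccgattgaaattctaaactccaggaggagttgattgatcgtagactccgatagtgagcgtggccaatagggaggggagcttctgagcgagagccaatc
The only match in these 3 windows was a TEAD element in Timp1. Promoters were listed for 59 of the 87 genes. The TEAD element was in 15.3% of them, in 13.3% of the 12408 tested genes with a promoter and in 14.4% of all 27025 genes listed. The AP-1 element was in 6.78%, 6.04% and 7.82%, the ATF4 element in 1.69%, 2.8% and 3.89%, the NF-kB element in 13.6%, 10.3% and 8.23%, and the CArG box in 1.69%, 1.61% and 1.62%. A match is a description of letters and not of a bound site.

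The course after day 4 divided the 87 genes. Between day 4 and day 7 limma called 463 genes higher (2.96%) and 268 lower (1.71%) in EGFP podocytes, among them 23 of the 87 higher and 24 lower. The day 4 arrays also chose the 87 genes, so these counts are not independent of that choice. S100a6 went on to 7.78, 7.53, 8.07 and 8.28 at day 7, a further 4.53 (adjusted p = 2.3e-07). Timp1 went on to 3.24, 3.24, 2.89 and 3.59 and Psat1 to 2.56, 2.48, 2.64 and 3.13. All 4 arrays of day 7 were above all 4 of day 4 for these 3 genes, which at day 1 read 0.07 to 0.68, -2.48 to -1.46 and -1.43 to -0.92. In TdTomato, Timp1 already read -0.01 to 1.55 at day 1, and Col5a3 -0.29 to 2.03 against -3.22 to -3.07 in EGFP, so for these genes the arrays of both populations did not overlap at day 1.

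Other genes higher again at day 7 were Crct1, Cdsn, Pkp1 and Padi4 of the cornified-envelope list and Tagln and Flna of the contractile list. Crct1, a small protein of the epidermal differentiation complex, was not well above background on any day 0 array (-6.84, -7.16, -6.40 and -7.55) and read 0.95, 0.06, 2.06 and 0.74 at day 4. With its day 0 level bounded by detection, this is at least 67.1-fold higher (adjusted p = 1.8e-08), and day 7 lay a further 4.48 above. That bound holds for the main processing only, and the smallest log2 change of Crct1 under an alternative was 3.17. Col5a3, a chain of type V collagen, went from -3.28, -4.08, -3.89 and -3.03 to -0.02, -0.85, 1.41 and 0.27 (3.77 ± 0.45, 13.7-fold, adjusted p = 4e-05) and then rose by 4.47. P2rx5, an ATP-gated cation channel, went from -1.44, -2.51, -2.53 and -1.49 to 0.78, -0.17, 1.00 and 0.42 (2.50 ± 0.34, adjusted p = 0.00023). None of these 3 genes had overlapping groups, and each kept its call in every alternative in which it was tested.

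Tagln, the smooth muscle actin-binding protein transgelin, was bright already at day 0 (5.37, 4.56, 4.94 and 4.47) and stood at 7.08, 5.81, 7.48 and 6.09 at day 4 (1.78 ± 0.34, adjusted p = 0.0089). Flna, the actin crosslinker filamin A, changed by 1.01 ± 0.24 (adjusted p = 0.045). Cdsn, the corneodesmosin of skin junctions, rose by 2.19 ± 0.41 (adjusted p = 0.0069). Pkp1, a desmosomal plaque protein, rose by 2.41 ± 0.51 and Padi4, which turns arginine into citrulline, by 2.37 ± 0.56 (adjusted p = 0.048). Dnm1, the membrane-scission GTPase dynamin 1, rose by 1.83 ± 0.37, but its second probe gave 0.01. The calls of Flna, Padi4, Pkp1 and Dnm1 each ended under at least 6 of the alternatives, and that of Tagln without day 0 MC731 or day 4 MC822.

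The 4 mice of day 4 were not alike in the climbing genes. Of the 23, MC822 had the highest EGFP array in 17 and MC692 the lowest in 19. In the TdTomato samples of the same mice, MC822 was highest in 19 and MC692 lowest in 15. The TdTomato values entered the choice of these genes through the probe filter, the choice of the brightest probe and the spread shared by the fit. Over all genes MC822 was highest in 27.3% in EGFP and 32.2% in TdTomato, and MC692 lowest in 35.1% and 33.5%. Both samples of a mouse shared a slide: on the slide of MC692 the day 0 EGFP array, MC731, was lowest in 15 of the 23, and over all genes in 40.5%, so mouse and slide cannot be told apart. On the slide of MC822 the day 0 array, MC742, was highest in 3. In the 24 genes that were lower again at day 7, by contrast, MC822 was highest in 5 and MC692 lowest in 8.

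**Figure D2:**
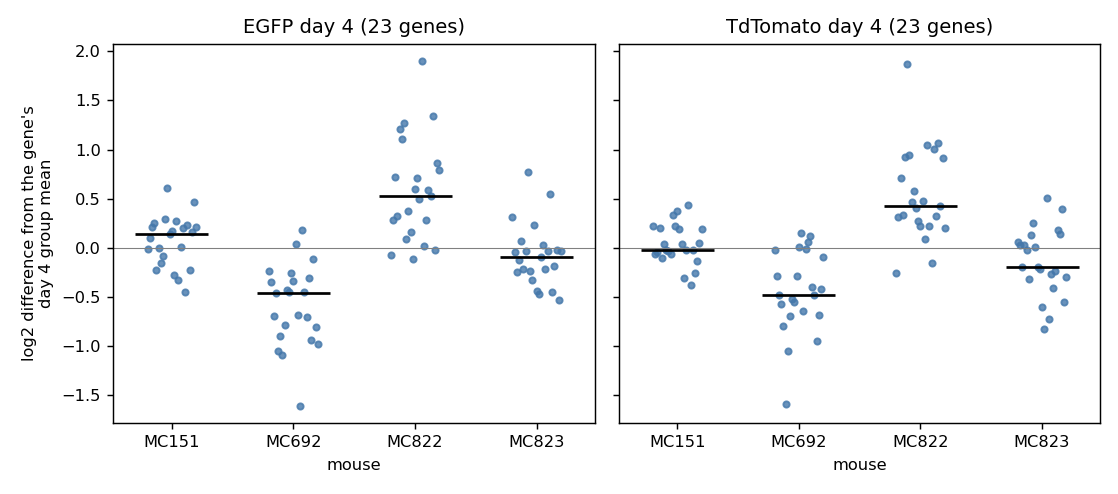
Each point is 1 of the 23 genes that were higher at day 4 and higher again at day 7 in EGFP; the y axis gives its difference (log2) from the mean of the 4 day 4 mice, in EGFP (left) and TdTomato (right) samples, with the median as a line. The median lies at 0.52 in EGFP and 0.42 in TdTomato for MC822 and at -0.46 and -0.48 for MC692.

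A second course peaked at day 4. Adamts2, which trims the amino-terminal propeptide off fibrillar procollagens, read 0.60, -0.04, 0.50 and 0.74 at day 0 and 2.71, 2.75, 2.46 and 2.25 at day 4 (2.09 ± 0.25, 4.26-fold, adjusted p = 4e-05). At day 7 it was back at -0.21, 0.37, 1.13 and 0.41, below every day 4 array (-2.11, adjusted p = 5.2e-06). Its other probe gave 1.04, and with the mean of both probes the call at day 4 ended (1.57). Sod3, the extracellular superoxide dismutase, went from 3.38, 2.39, 3.30 and 3.15 to 4.84, 4.57, 4.32 and 4.28 (1.45 ± 0.22, 2.73-fold, adjusted p = 0.00071). It then fell to between 2.06 and 2.24, under all arrays of day 0.

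Tmem179, a membrane protein, went from -0.24, -2.06, -0.72 and -0.82 to 2.86, 2.49, 1.61 and 2.23 (3.26 ± 0.43, 9.58-fold, adjusted p = 0.0002), and 2 probes gave 3.26 and 3.27. At day 7 it lay between -2.19 and -0.58. Spon2, a secreted matrix protein of the spondin family, rose by 3.22 ± 0.51 (9.33-fold, adjusted p = 0.001) and then fell by 1.85. Thbd, thrombomodulin, which turns thrombin toward protein C, went from -0.27, -1.16, 0.11 and -0.17 to 2.10, 2.52, 2.37 and 2.37 and fell by 1.71 to day 7. Ednra, the endothelin A receptor, was dim throughout (-5.30, -5.34, -4.43 and -5.21 at day 0, -2.51, -3.64, -2.87 and -2.13 at day 4) and lay below its day 0 level by day 7. Bmp1, which trims the carboxy-terminal propeptide, rose by 1.05 ± 0.23 (adjusted p = 0.025) and fell by 0.90, with other probes at 0.70 and 0.35. The day 4 calls of Ednra and Bmp1 each ended under 8 alternatives, among them the removal of any 1 of 6 single arrays.

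Over the 24 genes the median of day 7 minus day 0 was 0.07, with 15 above 0, and over the 20 that were above background on a day 0 array it was 0.03. Beside Adamts2 and Bmp1, the other 5 procollagen-processing genes measured, a list drawn up after these values were seen, were not called, and the list's median was 0.20. In glycolysis and glycerol phosphate metabolism, also a list drawn up afterwards, 2 of 20 genes were called higher and 0 lower with a median of 0.27. Of all genes 0.557% were called higher. These were the glycerol phosphate dehydrogenase Gpd1 (4.65, 3.30, 4.38 and 3.56 at day 0, 5.77, 5.27, 5.82 and 5.43 at day 4; 1.60 ± 0.31, adjusted p = 0.012) and the pyruvate kinase Pkm (0.88 ± 0.15, adjusted p = 0.0034). Both fell back by day 7, by 1.70 and 0.85. Triosephosphate isomerase Tpi1 (0.66, adjusted p = 0.077), Gapdh (0.57), Pgk1 (0.40) and Pfkm (0.32) also had day 4 arrays wholly above day 0 but did not pass the test. Such a lack of overlap was found in 3.95% of all genes, and the list was drawn up after these values were seen.

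**Figure D3:**
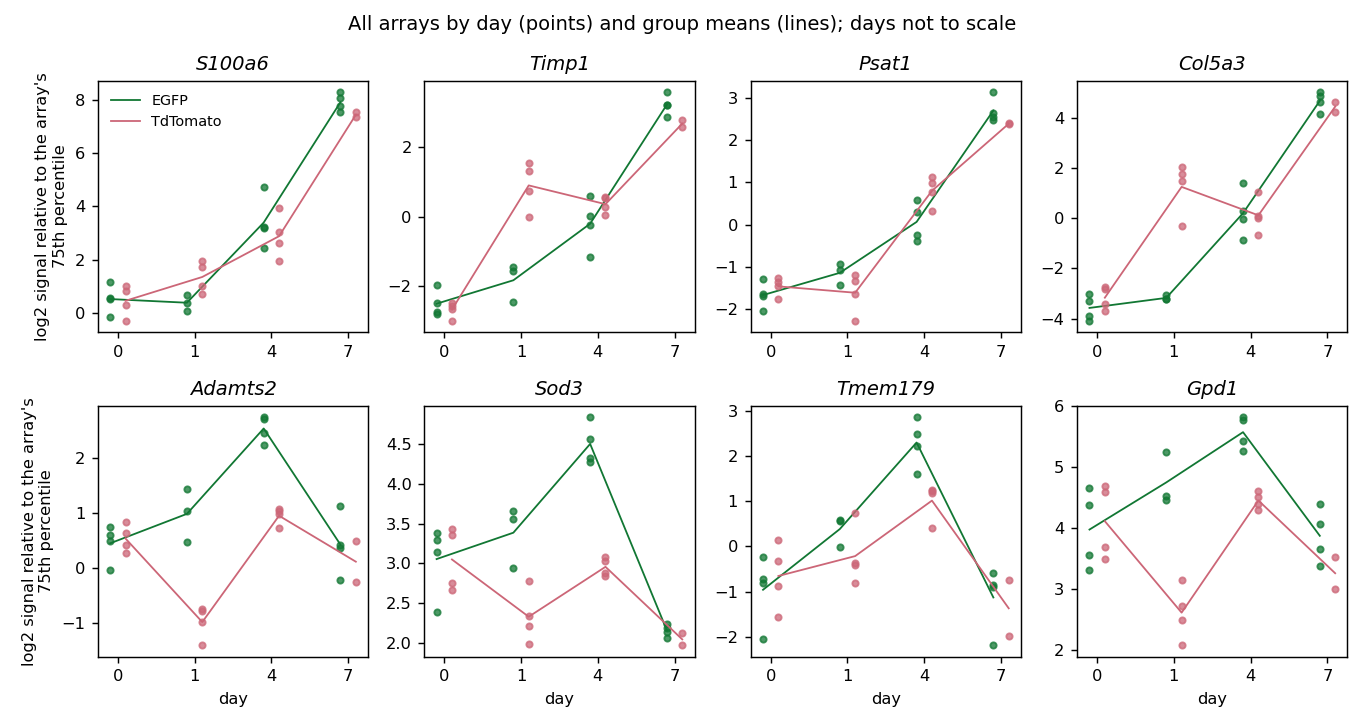
Signal (log2 relative to the 75th percentile) of 8 genes on all arrays of days 0, 1, 4 and 7 in EGFP (green) and TdTomato (red) podocytes; lines join group means and days are not to scale. By group mean, S100a6, Timp1, Psat1 and Col5a3 are highest at day 7 in both populations, where the TdTomato group holds only 2 arrays. In EGFP, Adamts2, Sod3, Tmem179 and Gpd1 are highest at day 4.

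The same days were then compared in the targeted TdTomato podocytes. There 3347 genes were called higher (21.4%) and 5611 lower (35.9%) at day 4. Of the 87 genes higher in EGFP, 57 were higher in TdTomato too, which is 65.5% of the EGFP list and 1.71% of the TdTomato list. The change in TdTomato minus that in EGFP was called higher for 2503 genes (16%) and lower for 4429 (28.3%), with a median of -0.35 over all genes. Scaling to the array median gave 1801 and 6241 with a median of -0.79, and the mouse as a replicate block gave 6694 lower. Among the 87 genes the TdTomato change was called larger in 32 (36.8%), smaller in 28 (32.2%) and neither in 27, a split that uses the same EGFP arrays that chose the genes. With the mouse as a replicate block, which takes account of the shared mice, 34 of the 87 were called larger and 37 smaller. In the main fit the share of smaller changes was near that of all genes.

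**Figure D4:**
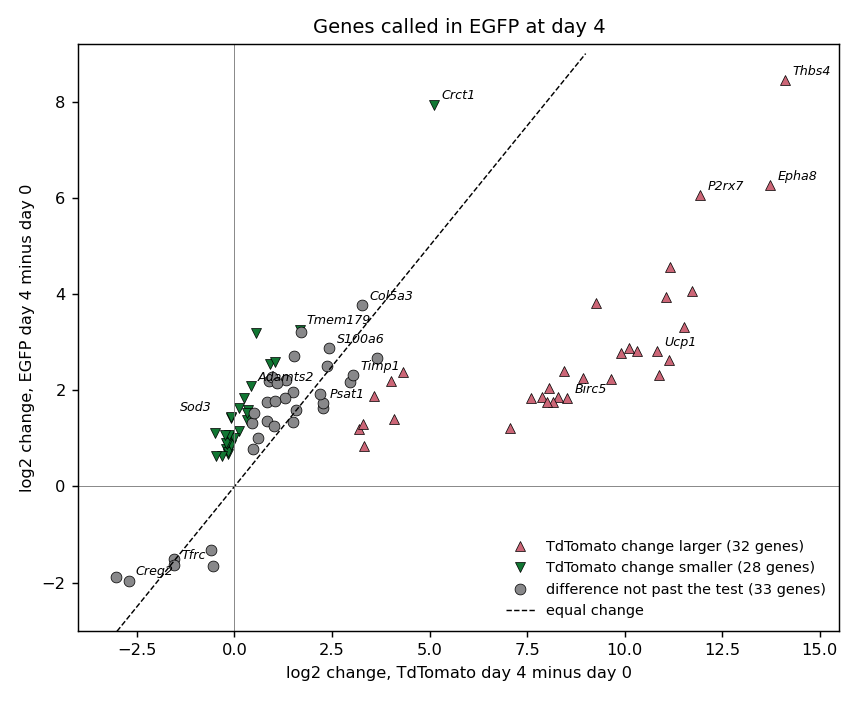
Change from day 0 to day 4 (log2) in EGFP (y axis) against TdTomato podocytes (x axis) for the 87 higher and 6 lower genes of EGFP, by whether the difference between both changes was called; the dashed line marks equal change. Thbs4, Epha8 and P2rx7 lie far to the right of the line, S100a6, Timp1 and Psat1 near it, and Adamts2 and Sod3 near 0 on the x axis.

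On the linear scale the rise in EGFP was under 2% of the rise in TdTomato in 25 of the 32 genes with a larger TdTomato change, a limit set after the values were seen. In these 25 it ran from 0.287% to 1.73%, and in the other 7 from 8.97% to 26.0%, with no gene between. Thbs4, thrombospondin 4, a matrix glycoprotein, was at background on the day 0 EGFP arrays (-6.71, -7.05, -7.21 and -7.40) and read 1.61, 1.30, 1.32 and 1.20 at day 4, at least 88.9-fold higher (adjusted p = 4.3e-13). That bound holds for the main processing only, and the smallest log2 change of Thbs4 under an alternative was 3.46. In TdTomato it reached 8.33, 7.30, 7.44 and 7.40, and the EGFP rise was 1.25% of that rise. P2rx7, the ATP-gated channel of inflammasome activation, went from -3.63, -3.41, -2.37 and -2.60 to 2.95, 3.98, 2.67 and 2.61 in EGFP (6.05 ± 0.40, 66.4-fold), a share of 1.73%. Its dimmer probes gave changes of 2.90 and 4.24. Epha8, an ephrin-A receptor, went from -5.98, -6.97, -6.12 and -5.73 to 0.82, 1.29, -0.94 and -0.94 (at least 36.1-fold, adjusted p = 2.8e-05), a share of 0.551%. Its smallest log2 change under an alternative was 2.28.

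Other genes of this kind included the sperm protamine Prm1 (0.584%), the collagen Col22a1 (0.567%), the uncoupling protein Ucp1 (0.448%), the epidermal lipoxygenase Aloxe3 (0.462%), the liver glycogen synthase Gys2 (1.20%), Efcab3 (0.961%), the myosin Myo1g (0.731%) and the mitotic survivin Birc5 (0.717%). The calls of Epha8, Prm1, Col22a1, Efcab3, Gys2, Myo1g, Ucp1 and Aloxe3 ended with normexp background correction. In 454 genes that were at background at day 0 in both populations, rose over 8-fold in TdTomato but missed the EGFP threshold, the same share had a median of 1.55% (from the 5th percentile at -0.200% to the 95th at 13.6%). In the 23 silent genes that reached over 4 times the 75th percentile in TdTomato, a limit set after seeing the data, it had a median of 0.391% (0.169% to 1.22%), and 10 of them were among the called EGFP genes. Whether TdTomato cells or their RNA entered the EGFP sort was not tested.

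The 7 genes with the larger shares included Padi4 (22.9%), the p53 target Phlda3 (16.4%, with a call that ended under 11 alternatives) and cubilin, Cubn, an endocytic receptor of proximal tubule that podocytes also carry (16.3%). Cubn read -4.10, -5.83, -3.66 and -3.62 at day 0 and -1.85, -2.11, -1.78 and -2.67 at day 4 (2.20 ± 0.35, adjusted p = 0.0011), and its summed proximal tubule list, given above, was higher at day 4 with overlapping groups. The part of tubule RNA in this value was not tested.

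The 28 genes with a smaller TdTomato change had a median rise of 1.14 in EGFP and a median change of -0.08 in TdTomato, where 3 were called higher and 1 lower. The EGFP level at day 4 was above the TdTomato level in all 28, and in 19 it was the highest of all 8 group means. The way the 28 were chosen favours both counts, so they are no separate result. The TdTomato mean of day 7 also rests on only 2 arrays. Besides Adamts2 (TdTomato change 0.42), Sod3 (-0.09) and Bmp1 (-0.13) they held Iqgap1, a scaffold between nephrin and actin (EGFP 0.87 ± 0.16, adjusted p = 0.0075, TdTomato -0.08). They also held Adamts9, a protease of matrix proteoglycans (1.39 ± 0.22 and 0.32), and Cacna2d4, a calcium channel subunit (1.11 ± 0.24 and -0.51), whose EGFP call ended under 10 alternatives, quantile and array median scaling among them. Chosen after their values were seen, the nephric growth factor Gdnf (2.58 ± 0.41 and 1.04) and the basement membrane protein Vwa1 (1.08 ± 0.20 and -0.25) were of this kind too. Crct1, at background at day 0, read from -2.27 to 1.18 in TdTomato at day 4, below the EGFP array of the same mouse in each case. The interaction was below 0 for most genes, with the median given above. Of the 28, 27 were again called with normexp, 26 with quantile normalization and 25 with the mean of probes. When MC731 of day 0 was dropped, 24 were. Array median scaling kept all 28, but it moved the median interaction over all genes from -0.35 to -0.79. That shift favours calls below 0, so this count is no further support. With the mouse as a replicate block 37 genes were called smaller, as given above. Of the 28, 13 were also lower at day 7 than at day 4, and for these the median of day 7 minus day 0 was 0.03.

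In the 27 genes whose changes the main fit did not separate, the TdTomato change was above 0 in all 27 (0.45 to 3.65). It was called higher in 22, beside 21.4% of all genes, and the way the 27 were chosen favours a rise in TdTomato. The mouse as a replicate block left fewer genes unseparated, as given above. S100a6 reached 2.62, 1.93, 3.94 and 3.02 in TdTomato at day 4 (change 2.43, against 2.87 in EGFP; difference -0.44, adjusted p = 0.58). Timp1 changed by 3.05 (difference 0.74, adjusted p = 0.2) and Psat1 by 2.26 (difference 0.53, adjusted p = 0.21). Dlx4, a homeobox factor, was called in both populations (1.85 ± 0.31 in EGFP and 1.30 in TdTomato). At day 4 it nevertheless read -1.52, -0.90, -1.50 and -1.10 in EGFP, above all TdTomato arrays (-3.03, -3.16, -3.38 and -3.30).

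Of the 6 lower genes, 2 had groups without overlap and were above background on all day 0 arrays: Creg2, a secreted glycoprotein, and Tfrc, the transferrin receptor through which cells take up iron. Creg2 went from 1.23, 1.04, 0.75 and 0.53 to -0.08, -1.92, -1.29 and -1.01 (-1.96 ± 0.39, adjusted p = 0.013). It lost its call in the fit on the 8 arrays alone and when MC731 of day 0 or either of MC692 and MC822 of day 4 was dropped. Tfrc went from 0.33, 0.57, 1.20 and 1.24 to -1.14, -0.86, -0.64 and -0.53 (-1.63 ± 0.27, 3.09-fold lower, adjusted p = 0.0015). Its groups did not overlap, and its 3 probes gave -1.63, -1.72 and -1.59. The call of Tfrc ended only in the fit on the 8 arrays alone. At day 7 Tfrc read 0.16, 0.22, -0.25 and 0.75, a rise of 1.01 (adjusted p = 0.024) that was smaller than the fall before it. In TdTomato it was lower at day 4 by 1.54 on the log2 scale (-1.54, adjusted p = 3.7e-05). In the iron and heme list, 31 genes measured, only Tfrc was lower and only Steap1, a metalloreductase of endosomes, was higher (1.34 ± 0.29, adjusted p = 0.025). The call of Steap1 ended in the fit on the 8 arrays alone and when MC731, MC742, MC151 or MC823 was dropped. The ferritin chains Fth1 (-0.09) and Ftl1 (0.24), the iron-regulatory proteins Aco1 (-0.16) and Ireb2 (-0.05) and the heme oxygenase Hmox1 (0.13) were not called. The other 4 lower genes were the histamine receptor Hrh1 (-1.89, but -0.42 and -0.45 on its other probes, and with overlapping groups), Zar1l, BC039771 and the interferon-induced GTPase Tgtp1, the last 3 not well above background on any day 4 array; these 4 complete the count and were not all picked by the naming rule.

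Few members of the gene lists were called, and 60 of the 87 genes belong to none of the 33 lists. Of all genes tested 0.557% were called higher and 0.0384% lower. The lists were written with earlier results of these data known. Of 25 podocyte injury markers measured, 2 were higher (S100a6 and Timp1) and 0 lower, with a median of 0.31. Desmin, Des, the intermediate filament of injured podocytes, read -1.25, -1.88, -2.17 and -1.20 at day 0 and -0.91, -0.61, -0.64 and -0.03 at day 4 without overlap, but missed the threshold (1.08 ± 0.26, adjusted p = 0.056). It passed under 7 alternatives, with adjusted p from 0.0082 to 0.35 over all of them. Clusterin, Clu (1.68, adjusted p = 0.14), and galectin 3, Lgals3 (1.08, adjusted p = 0.19), likewise lay wholly above day 0 and did not pass. Day 4 arrays wholly above day 0 were found in 3.95% of all genes. The urokinase receptor Plaur stood at -0.30 ± 0.87.

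Among 45 targets of ATF4 and genes of serine and one-carbon metabolism, Psat1 alone was called, with a median of 0.13. The other serine enzymes were Phgdh (0.54, adjusted p = 0.73) and Psph (0.39, adjusted p = 0.54), Mthfd1l of the folate cycle stood at 1.69 (adjusted p = 0.052), and Atf4 itself at 0.13, Atf3 at -0.60 and Ddit3 at -0.40. At an unadjusted p under 0.05, 10 of the 45 were higher, beside 983 (6.29%) of all genes. Of 39 genes of NF-kB signalling and chemokines 0 were called by limma, 7 higher and 1 lower at an unadjusted p under 0.05 (6.29% and 1.54% of all genes), with a median of 0.27. The chemokines Cxcl10 (1.14), Cxcl1 (1.29) and Ccl2 (0.82) and the growth factor Csf1 (0.66) had adjusted p values from 0.46 to 0.94.

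In the matrix list 3 of 36 were higher (Thbs4, Col22a1 and Col5a3), in proteases and their inhibitors 2 of 34 (Timp1 and Adamts9), and in contractile and focal adhesion genes 2 of 58 (Tagln and Flna). Of 25 cornified-envelope and desmosome genes 4 were higher with a median of 0.02, and of 36 Eph and purinergic receptor genes 3 were (Epha8, P2rx7 and P2rx5). These counts stand beside 0.557% of all genes called higher, and whoever wrote the lists knew earlier results of these data. The 35 chaperones, 32 immediate early genes and 40 interferon and MHC genes had 0 called by limma, with medians of 0.04, -0.02 and 0.11. At an unadjusted p under 0.05 these 3 lists had 0, 3 and 0 higher and 4, 1 and 1 lower, beside 6.29% and 1.54% of all genes. Of 36 cell cycle genes only Birc5 was called. Closest to the threshold, Padi4, Rad54l and Ninj2 were inside at adjusted p = 0.048 and Gpr182, Mthfd1l and Ndufab1 outside at adjusted p = 0.052.

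**Figure D5:**
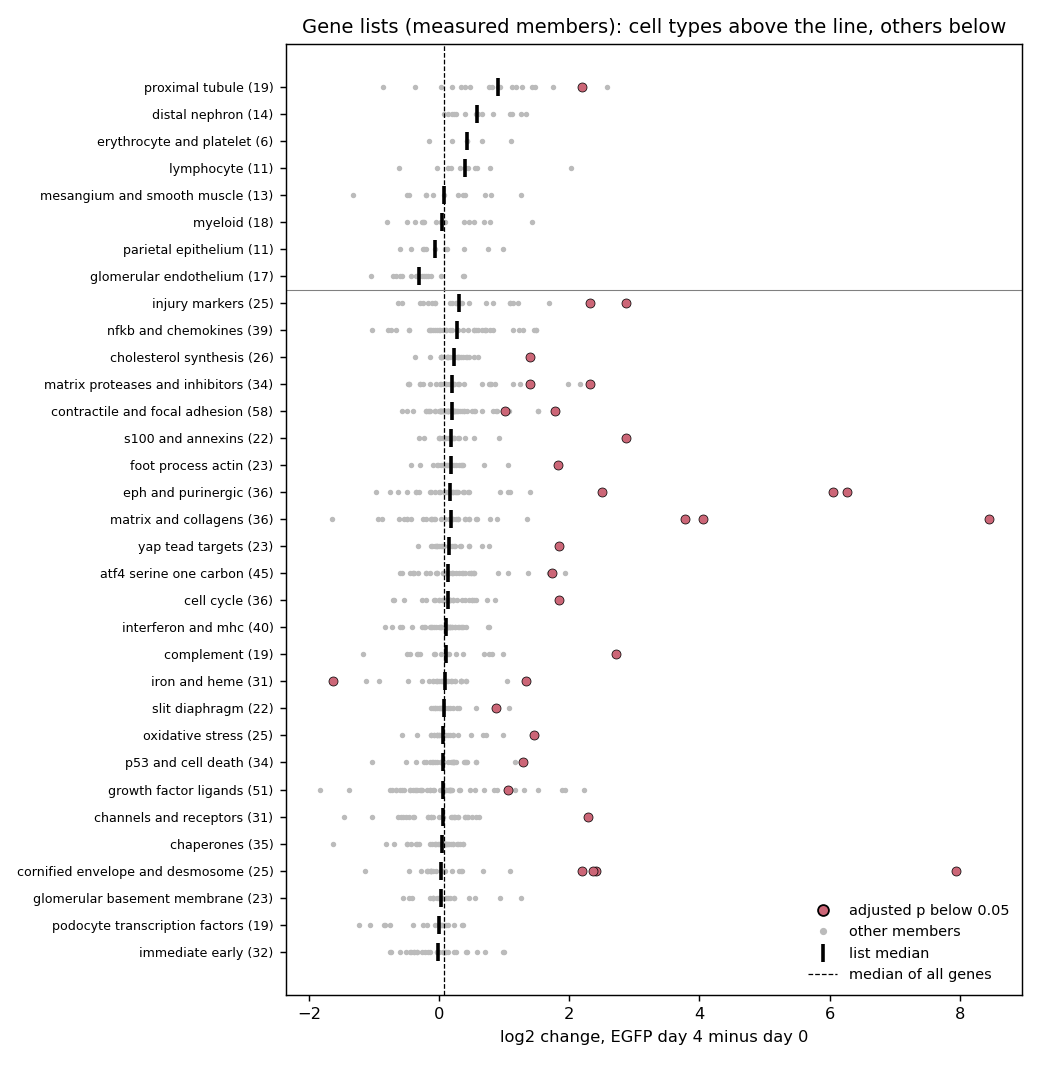
Change from day 0 to day 4 in EGFP podocytes (log2, x axis) of each measured member of 33 gene lists, with members past the threshold in red, list medians as bars and the median of all genes, 0.07, as a dashed line. List medians run from -0.02 to 0.31 below the dividing line and from -0.31 to 0.90 for the cell types above it, and no list has more than 4 called members.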

How the data were processed

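Spot intensity was read and background-subtracted by Agilent Feature Extraction 11.5.1.1, per the file headers and the submitters' processing notes, and deposited as processed signal for 29 Cy3 arrays. The authors' series matrix of log2 values was deposited too; its scaling is not stated in any source used, its direction and scale follow the scanner files in 27 of 29 columns, and both columns of mouse MC221 at day 7 match no scanner file (correlation 0.9865 and 0.9945 with their own), so it served only as an alternative.

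The log2 of the processed signal minus the log2 of the array's 75th percentile over non-control spots was used. Spots marked as non-uniform or as population outliers were set aside, and a probe was kept if well above background on at least 3 arrays. RefSeq accessions gave 26582 of 55681 probes 1 symbol and 29099 none, and the brightest probe stood for its gene, leaving 15628 genes. Limma 3.58.1 in R 4.3.3 fitted 8 group means to all arrays, two-sided, with Benjamini-Hochberg adjustment. The fit was tested on simulated data. Where no day 0 array was well above background, "at least" folds take the detection level of each array. They are bounds under the main processing and not over the alternatives. Normexp, an alternative, used spot medians because the files give no spot means. Figures used Python 3.11.15 and matplotlib 3.10.9. The number of arrays limits the precision.

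Members and gene lists were chosen with earlier results of these data known. The naming rule takes 10 genes by name and, among called genes without overlap and above background in the higher group, the 15 largest rises and up to 10 largest falls (only 2 qualified), 4 called members per list, the 6 highest above TdTomato, and 3 on each side of the threshold; other genes are said to be chosen afterwards or stand as members of a list. Some genes that the rule takes are left out of the text. EGFP and TdTomato samples of 1 mouse pair as a replicate block (correlation of deviations 0.04 to 0.64, consensus 0.596); day 0 and day 4 mice differ, so the block serves the comparison of populations. Other alternatives were quantile and array median scaling, filters, probe averaging, the slide as a block, the 8 arrays alone, robust trends and each replicate left out.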

Additional observations from a re-analysis of the deposited data

Results flagged for a closer look

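Among the genes named in the text, 6 values stood apart from the other 3 of their group, out of 150 groups looked at, where chance takes about 1 in 20. Ednra read -4.43 in MC742 at day 0 (others -5.34, -5.30 and -5.21), and Plaur -1.81 in the same array (others -3.75, -3.54 and -3.49). In MC122 at day 0, Atf4 read 8.43 (others 7.91 to 7.92) and Aco1 -1.10 (others -1.40 to -1.38). At day 4, Clu read 5.55 in MC822 (others 3.05, 3.14 and 3.42) and Fth1 7.80 in MC151 (others 7.19 to 7.28).

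The change in TdTomato differed from that in EGFP, by limma's interaction, for 46 of these genes, 29 of them called in EGFP. Values are log2, TdTomato minus EGFP, against a median of -0.35 over all genes. For Col22a1 (7.66), Crct1 (-2.83), Efcab3 (7.13), Epha8 (7.47), Gys2 (5.44), Ninj2 (6.01), Pkp1 (6.03), Thbs4 (5.67) and Ucp1 (8.03), which were at background on all EGFP day 0 arrays, they are fitted values and not bounds. With normexp, for instance, the EGFP change of Ucp1 was 0.55 and that of Col22a1 0.84. The difference was above 0 for Aloxe3 (7.50), Birc5 (6.69), Cubn (1.80), Myo1g (7.23), P2rx7 (5.89), Padi4 (1.96), Phlda3 (1.99) and Prm1 (6.59). It was below 0 for Adamts2 (-1.68), Adamts9 (-1.07), Bmp1 (-1.19), Cacna2d4 (-1.62), Dnm1 (-1.58), Gdnf (-1.55), Gpd1 (-1.26), Iqgap1 (-0.95), Pkm (-1.06), Sod3 (-1.54), Tmem179 (-1.59) and Vwa1 (-1.33). Of genes not called in EGFP it was above 0 for Csf1 (2.82), Cxcl1 (3.77), Cxcl10 (3.83), Hmox1 (1.71), Lgals3 (3.21) and Mthfd1l (4.97). It was below 0 for Aco1 (-0.79), Des (-0.93), Fth1 (-0.81), Ndufab1 (-0.64), Nphs1 (-1.27), Pfkm (-0.62), Podxl (-1.23), Psph (-0.68), Synpo (-1.29), Tpi1 (-1.02) and Wt1 (-1.12).

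Of 17742 probes past the filter that carry no gene symbol here, 24 were called higher and 2 lower in EGFP at day 4.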

How the results depend on the processing

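For day 4 against day 0 in EGFP, the count of higher genes moved from 87 to 53 with normexp, 57 with array median scaling, 250 with the slide as a block and 26 in a fit of only the groups compared. It ranged from 41 to 103 with single replicates left out. The count of lower genes moved from 6 to 2 with normexp, 12 with the authors' values, 27 with the slide as a block and 2 with only the groups compared, and from 1 to 8 with single replicates left out. The mouse as a replicate block gave 95 and 4. For TdTomato minus EGFP, a strict filter gave 1528 higher and the mouse as a replicate block 6694 lower. For day 7 against day 4, the slide as a block gave 791 higher and 1053 lower, array median scaling 113 lower and only the groups compared 150 lower. Leaving out single replicates gave 351 to 463 higher and 166 to 265 lower, and without day 7 MC221, whose deposited columns disagree, 401 and 212. The cause of these shifts was not tested.

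Of the named genes' alternatives, 786 kept direction and side of the threshold, 139 lost the call, 25 gained it and 11 turned sign, all 11 in podocyte genes near 0. These were Nphs1 without day 0 MC122 (0.08) and Synpo with the mean of probes (-0.02). Podxl turned with quantile normalization (-0.04) and array median scaling (-0.02) and without day 0 MC742 (-0.11), day 4 MC692 (-0.11) or day 4 MC823 (-0.07). Wt1 turned without day 0 MC122 (0.13), day 4 MC692 (0.02), day 4 MC822 (0.07) or day 4 MC823 (0.04). With single replicates left out, Nphs1 ran from -0.16 to 0.08, Podxl from -0.11 to 0.16 and Wt1 from -0.13 to 0.13.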
